A study of Mus musculus with 12 samples.

Results

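Intestinal identity was read in these arrays from 8 transcription factors, Cdx1, Cdx2, Gata4, Gata6, Hnf4a, Hnf4g, Pdx1 and Onecut2, which were named as a set and then looked up by symbol. Each had exactly 1 transcript cluster (the set of probes that reads 1 gene) annotated to its symbol alone, so all 8 were measured, of 22180 genes with such a cluster on the array. The arrays held crypt-enriched tissue, taken by laser microdissection from the proximal small intestine, from 6 Zfp148gt/+APCMin/+ mice and 6 APCMin/+ controls that were wild type for Zfp148. The gt allele is a gene trap that inactivates 1 copy of Zfp148, a zinc finger transcription factor, in every tissue of the mouse. All 12 mice, controls included, carried the Min allele of Apc, which encodes a truncated protein and gives intestinal adenomas. Animals were 12 weeks old, on a mixed genetic background with littermate controls, but the labels do not say which mice were littermates. The comparison asks how loss of 1 Zfp148 copy changes expression in the crypts from which adenomas start.

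The epithelium of the gut is patterned from stomach to colon by a small set of transcription factors. The caudal-type homeobox proteins CDX1 and CDX2 set and hold the intestinal state, and mouse endoderm that loses Cdx2 takes on features of the foregut. The zinc finger proteins GATA4 and GATA6 act with them. In the mouse, Gata6 is expressed along the length of the intestine, whereas Gata4 is expressed proximally and falls away in the ileum, and jejunum without Gata4 turns on ileal bile acid genes. The nuclear receptors HNF4A and HNF4G, close relatives that can stand in for each other in the mouse, drive the lipid handling and brush border genes of enterocytes. PDX1 marks the antrum, duodenum and pancreas, and ONECUT2 is a cut-homeodomain protein of the liver, pancreas and duodenum.

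The regulatory sequence before the start site is shown for Cdx2, Pdx1 and Hnf4a. Of these, only the position of the Hnf4a starts bears on how the array reads a gene. Cdx2 and Pdx1 are neighbouring ParaHox homeobox genes on chromosome 5 that point in opposite directions, and Hnf4a has a pair of start sites. The sequences are from RefSeq (GRCm38.p6), written 5′ to 3′ on the strand of the gene, in lower case with motif matches in capitals. They are the 250 bases before the start, except at the upstream Hnf4a start. That window holds 204 bases, because it stops at the first base of the gene record and so ends short of the start itself.
Cdx2, chr5:147307250-147307499, minus strand: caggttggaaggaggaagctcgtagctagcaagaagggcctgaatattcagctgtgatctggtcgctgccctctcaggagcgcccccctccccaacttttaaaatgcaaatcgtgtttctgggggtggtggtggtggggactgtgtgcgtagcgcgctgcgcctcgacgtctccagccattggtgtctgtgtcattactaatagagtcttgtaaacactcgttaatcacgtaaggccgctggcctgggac
Pdx1, chr5:147269847-147270096, plus strand: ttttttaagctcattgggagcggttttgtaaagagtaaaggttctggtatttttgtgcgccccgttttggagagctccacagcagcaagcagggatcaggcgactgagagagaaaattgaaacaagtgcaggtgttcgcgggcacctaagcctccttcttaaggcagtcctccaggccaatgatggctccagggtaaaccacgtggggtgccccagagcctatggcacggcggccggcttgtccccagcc
Hnf4a upstream start, chr2:163506607-163506810, plus strand: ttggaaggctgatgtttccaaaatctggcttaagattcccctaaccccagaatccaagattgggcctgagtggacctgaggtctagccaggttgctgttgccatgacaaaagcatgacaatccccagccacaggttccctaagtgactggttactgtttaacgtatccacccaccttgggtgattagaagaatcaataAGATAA
Hnf4a downstream start, chr2:163546905-163547154, plus strand: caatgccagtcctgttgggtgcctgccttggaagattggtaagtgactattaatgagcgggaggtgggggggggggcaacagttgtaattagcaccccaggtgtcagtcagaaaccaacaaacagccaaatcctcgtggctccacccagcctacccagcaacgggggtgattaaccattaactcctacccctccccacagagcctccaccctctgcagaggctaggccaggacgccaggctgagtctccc
Both strands were searched for a CDX motif (TTTATNG, where N is any base) and a GATA motif (NGATAA), which were chosen after these windows had been read. The window at the upstream Hnf4a start held 1 GATA match, shown in capitals, and the other 3 windows held no match. Of 32851 RefSeq windows of 250 bases, 22.5% held a GATA match and 9.81% a CDX match. The Hnf4a starts lie 40298 bases apart and the array reads the gene with 1 cluster, so the use of either start cannot be told apart in the values below.

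Zfp148 was lower in every gene-trap mouse than in any control. Its log2 signal ran from 5.01 to 5.95 (median 5.53) in Zfp148gt/+APCMin/+ mice and from 6.06 to 6.88 (median 6.23) in APCMin/+ mice. The ratio was 0.542 (95% confidence interval 0.411 to 0.714), and the exact permutation p of 0.00217 is the smallest that 6 against 6 mice allow, although the adjusted p over all clusters was 0.676 (limma). The signals are relative to the other clusters of an array and no read depth applies. Arrays correlated with each other at a median r of 0.968 to 0.978. The 2 genotypes also differed in technical and tissue measures. The interquartile range of the array signals was 2.77 ± 0.09 in gene-trap mice and 2.92 ± 0.07 in controls (SD, n = 6 each; exact permutation p = 0.0173). A stroma score, the mean log2 signal of 11 connective tissue genes, was 6.71 ± 0.20 (range 6.46 to 6.95) against 7.16 ± 0.20 (range 6.83 to 7.47; exact permutation p = 0.00649), with all 11 genes lower in mean. The smooth muscle list was lower at 8 of 8 genes (median log2 difference -0.35), the macrophage list at 8 of 8 (-0.27) and the endothelial list at 6 of 7 (-0.18). Of the 7 endothelial genes, 2 were above the receptor level defined below in every mouse. The T and NK cell list was mixed, with 3 genes higher and 5 lower (-0.28). The B and plasma cell list had 3 higher and 3 lower (0.02). Over the array, 58.4% of clusters above the median signal were lower. The epithelial score from 8 genes was 10.3 ± 0.14 against 10.4 ± 0.09 (exact permutation p = 0.338), and all 8 of its markers, Epcam and Cdh1 among them, were detected in every mouse. Fewer cells of a type and less RNA per cell cannot be told apart in such tissue.

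The factors of the whole intestine were clearly present in every mouse, Gata4 was present at a modest signal, and the 2 duodenal factors were at the level of silent genes. Presence was judged within each array against 1405 clusters for odorant and vomeronasal receptors, genes of the olfactory system, whose 95th percentile lay between 2.65 and 2.99. Cdx1, Cdx2, Gata4, Gata6, Hnf4a and Hnf4g exceeded it in 12 of 12 mice. Pdx1 exceeded it in 4 of 12 and Onecut2 in 0 of 12. Ranked by mean signal over all clusters, 97.7% lay below Hnf4g, 95.7% below Hnf4a, 94.98% below Cdx2, 94.0% below Cdx1 and 92.4% below Gata6. The share was 65.5% for Gata4, 51.7% for Pdx1 and 31.3% for Onecut2. Probe sets differ in brightness, so these places on the array are a description and not an order of abundance between genes.

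Genes that mark segments of the small intestine gave a mixed picture, with 3 ileal genes detected in every mouse and 2 genes of proximal enterocytes at or below the receptor level in nearly all. Fabp6, the ileal bile acid binding protein, ran from 11.7 to 12.6 over the 12 mice, and 99.9% of clusters had a lower mean. Slc51a, a subunit of the basolateral bile acid exporter, ran from 7.82 to 10.45, and Slc10a2, the apical bile acid transporter of the ileum, from 3.02 to 6.78. These 3 were above the receptor level in every mouse, while Fgf15, the ileal hormone that restrains bile acid synthesis, ran from 2.02 to 2.78 and was above it in 0 of 12. Lct, the lactase of proximal enterocytes, ran from 2.07 to 2.92 and passed the receptor level in 1 of 12 mice. Slc2a2, the basolateral glucose transporter GLUT2, passed it in 0 of 12 and Fabp1, a fatty acid binding protein, in 7 of 12. Other enterocyte genes were bright in the same arrays, with Sis (sucrase-isomaltase) from 7.04 to 9.79 and Fabp2 from 10.3 to 10.8.

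Duodenal genes were nevertheless detected. Of 8 listed, 7 passed the receptor level in every mouse, and Trpv6, a calcium channel, passed it in 4 of 12. Ada, adenosine deaminase, ran from 4.09 to 4.82, Gip, an incretin hormone of K cells, from 4.03 to 8.66 and Ghrl, ghrelin, from 3.69 to 7.83. Of the 2 Brunner's gland genes, Muc6 and Tff2, neither passed the level in any mouse. In the gastric list 1 of 9 genes (Tff1) passed it in every mouse, in the colonic list 2 of 7 (Car4 and Slc26a3) and in the pancreatic list 1 of 9 (Cela1). Among factors of other gut regions it was 1 of 9 (Barx1, a homeobox gene of stomach mesenchyme). The bright ileal genes, the dim Lct and Slc2a2 and the dim Pdx1 and Onecut2 were shared by both genotypes, and their ranges overlapped between them. The position of the sampled tissue along the intestine is given here as the study's methods have it and was not tested.

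**Figure D1:**
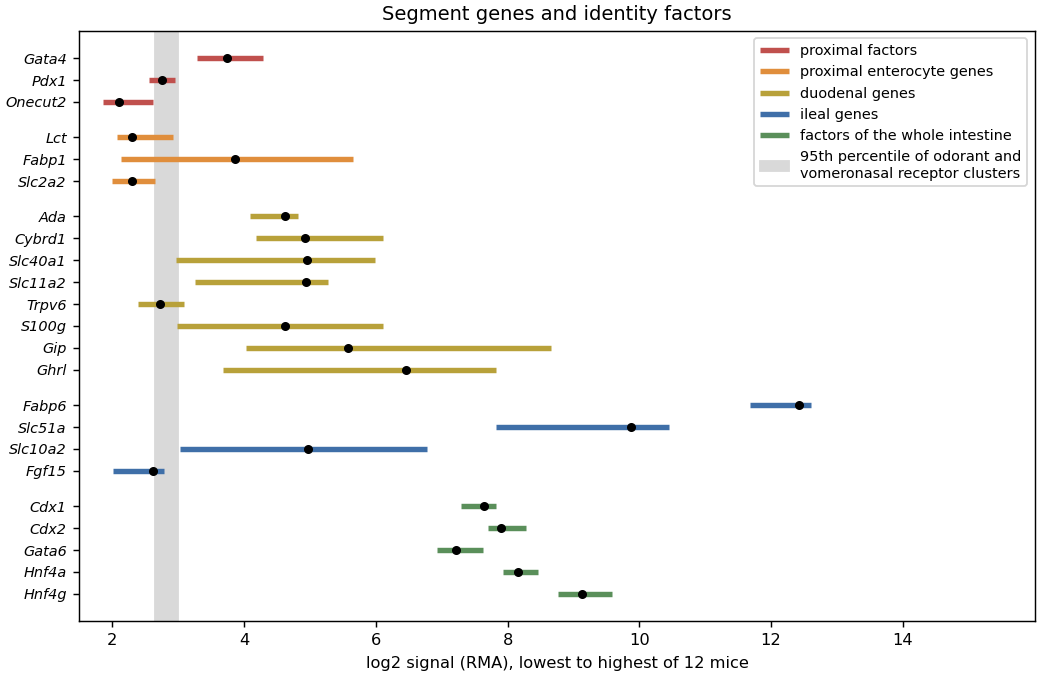
Lowest to highest log2 signal of each gene over the 12 mice (coloured lines) with the median (black dot), grouped by role, with the 95th percentile of odorant and vomeronasal receptor clusters across arrays in grey (2.65 to 2.99). Fabp6 lies between 11.7 and 12.6, whereas Lct, Slc2a2, Pdx1 and Onecut2 lie at or near the grey band.

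Both CDX genes held nearly the same signal in all mice. Cdx1, which is concentrated in crypts in the mouse, ran from 7.29 to 7.82 (median 7.54) in Zfp148gt/+APCMin/+ mice and from 7.52 to 7.79 (median 7.71) in controls. Mouse 911 was the lowest and mouse 783 the highest of all 12, both gene-trap animals, so the controls all lay inside the gene-trap range. Cdx2, the main determinant of the intestinal state, ran from 7.78 to 8.03 (median 7.92) in gene-trap mice and from 7.71 to 8.28 (median 7.86) in controls. Here the widest values, 782 at the top and 889 at the bottom, were both controls, and the gene-trap mice lay inside their range. The spread within genotypes was an SD of 0.162 for Cdx1 and 0.156 for Cdx2. Only 11.0% and 11.97% of the clusters within 0.5 log2 units of their level varied less.

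The GATA factors differed in how evenly they were read. Gata6 ran from 6.93 to 7.47 (median 7.18) in gene-trap mice and from 7.06 to 7.63 (median 7.33) in controls. The 3 highest values of Gata6 included 2 controls and 1 gene-trap mouse, and the lowest was a gene-trap mouse. Gata4 ran from 3.42 to 4.29 (median 3.87) in gene-trap mice and from 3.29 to 4.11 (median 3.69) in controls. Mouse 893 was highest and control 885 lowest, with the remaining mice of both genotypes mixed between them. The within-genotype SD was 0.204 for Gata6 and 0.296 for Gata4, larger than in 20.6% and 39.9% of clusters of like signal. Their relative Gata5, also a GATA factor of the gut epithelium, was read in 12 of 12 mice at 5.75 to 6.74.

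The HNF4 receptors were the 2 factors with the highest places on the array. Hnf4a ran from 7.92 to 8.46 (median 8.11) in gene-trap mice and from 7.98 to 8.26 (median 8.19) in controls. Both its highest and its lowest mouse, 893 and 891, were gene-trap animals. Hnf4g ran from 8.84 to 9.36 (median 9.13) in gene-trap mice and from 8.77 to 9.59 (median 9.14) in controls, and both of its extremes, 782 and 888, were controls. Hnf4g was the more variable, with a within-genotype SD of 0.259 against 0.152 for Hnf4a. For Hnf4g 66.1% of clusters of like signal varied less, and for Hnf4a 11.6%.

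Pdx1 and Onecut2 sat at or below the receptor level in most mice, so their values carry little beyond background. Pdx1, needed for the pancreas and duodenum, ran from 2.68 to 2.95 (median 2.90) in gene-trap mice and from 2.55 to 2.92 (median 2.73) in controls. Onecut2 ran from 1.89 to 2.62 (median 2.22) in gene-trap mice and from 1.86 to 2.26 (median 2.03) in controls. For both, 5 of 6 gene-trap mice exceeded the control mean and the ranges overlapped. Of the other ONECUT genes, Onecut1 was above the receptor level in 0 of 12 mice and Onecut3 in 12 of 12, at 3.48 to 4.27. Cdx4, the remaining CDX gene, passed it in 0 of 12.

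**Figure D2:**
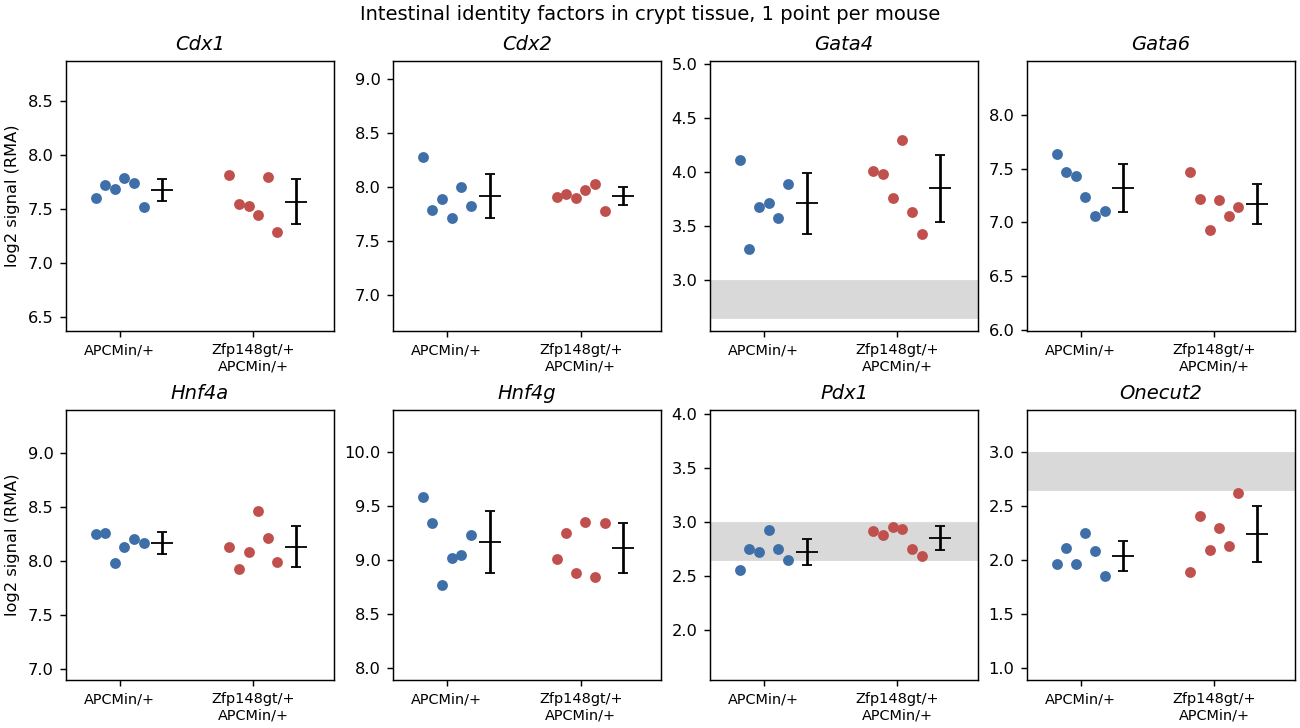
Log2 signal (RMA) of the 8 factors, 1 point per mouse, with the mean and SD of each genotype (6 mice each) beside the points and the receptor level in grey where it falls in the panel; every panel spans the same number of log2 units. The genotypes overlap in all 8 panels, and Onecut2 lies below the grey band.

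None of the 8 factors differed between genotypes beyond the spread between mice. The adjusted p over all clusters was under 0.05 for 0 of 8, where 0.0% of the 33793 clusters were called (limma), and the unadjusted p was under 0.05 for 0 of 8, where 6.76% of clusters were. The genotypes overlapped at all 8, and 0.308% of clusters did not overlap. Of the 8, 4 had a higher mean in gene-trap mice (Cdx2, Gata4, Pdx1 and Onecut2) and 4 a lower one, with a median log2 difference of -0.01 beside 0.02 over all clusters.

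The log2 difference, gene-trap minus control, was smallest for Cdx2, at 0.0060 (95% confidence interval -0.21 to 0.22; limma adjusted p = 0.993). It was -0.03 (-0.24 to 0.18) for Hnf4a and -0.05 (-0.37 to 0.26) for Hnf4g, with adjusted p of 0.960 and 0.953 by limma. Cdx1 differed by -0.11 (-0.33 to 0.11) and Gata6 by -0.15 (-0.41 to 0.11), with adjusted p of 0.841 and 0.808 by limma. Expressed as ratios, the intervals of these 5 reached no lower than 0.752, for Gata6, and no higher than 1.20, for Hnf4g. Gata4 had a wider interval, a ratio of 1.10 with limits of 0.865 and 1.40 (limma adjusted p = 0.874). Differences inside these limits could not be resolved with 6 mice per genotype.

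The 2 dim factors had the smallest exact p. The difference was 0.13 (-0.06 to 0.31) for Pdx1 and 0.20 (-0.06 to 0.46) for Onecut2, with exact permutation p of 0.108 and 0.126, each 0.502 after adjustment over the 8 comparisons. Dim clusters ran higher in gene-trap mice across the whole array. Of the clusters at or below the median signal 31.95% were lower, and of those above it 58.4%. Onecut2 lay in the first class, whereas Pdx1, at a mean of 2.79, lay just above the median of 2.71. Of the 3009 clusters with a mean above 7, where Cdx1, Cdx2, Gata6, Hnf4a and Hnf4g lie, 64.1% were lower, with a median log2 difference of -0.04. The interquartile range of the arrays moved with genotype as given above. With the interquartile range as a covariate the Pdx1 difference became -0.05, while that of Onecut2 was 0.22.

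**Figure D3:**
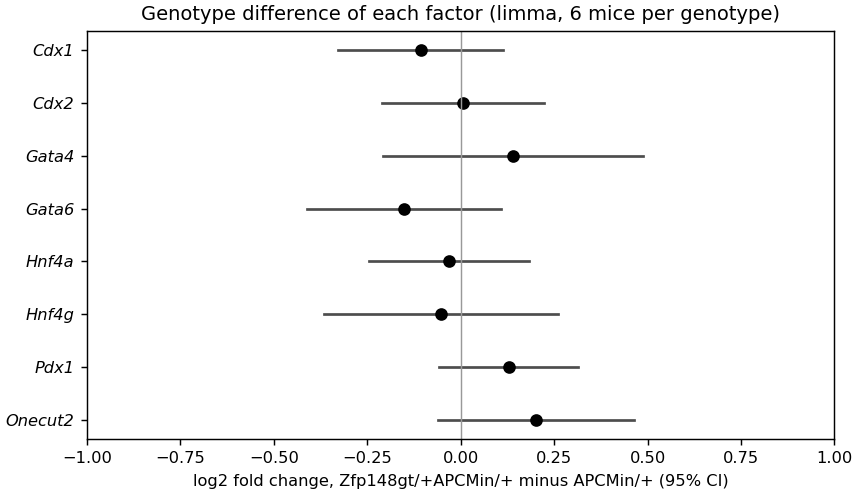
Log2 difference in signal, Zfp148gt/+APCMin/+ minus APCMin/+, for each factor, with its 95% confidence interval from limma (6 mice per genotype). All 8 intervals include 0, and the differences themselves run from -0.15 for Gata6 to 0.20 for Onecut2.

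Genes known to depend on these factors did not pass the test either. Of 11 targets of the CDX proteins, 2 averaged above and 9 below the controls, with a median log2 difference of -0.05. The median signal of these targets was 8.57. Of all clusters with a mean above 7, 64.1% were lower, with a median of -0.04. That class leaves out the targets Mep1a, Heph, Cldn2 and Lct, which had means from 2.37 to 6.79 and were among those below the controls. Of the 11 CDX targets, 0 had an unadjusted p under 0.05. The 2 with the smallest p were Abcb1a, a drug efflux pump, at -0.36 (-0.84 to 0.11), and Mep1a, the metalloprotease meprin alpha, at -0.57 (-1.44 to 0.31). Of 13 measured HNF4 targets, mostly apolipoproteins and lipid carriers, 7 had a higher and 6 a lower mean, with a median of 0.01, and 0 passed the unadjusted threshold. Slc2a2, at 0.14 (-0.06 to 0.35), and Fabp1, at -0.88 (-2.32 to 0.56), had the smallest p. Slc2a2 was above the receptor level in 0 of 12 mice and Fabp1 in 7 of 12. All 4 measured ileal bile acid genes, which rise in mouse jejunum without Gata4, had a lower mean (median -0.20), but 0 of 4 passed. The 2 with the smallest p, Fgf15 and Fabp6, were at -0.13 (-0.38 to 0.13) and -0.12 (-0.45 to 0.21). Fgf15 was above the receptor level in 0 of 12 mice.

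Relatives and partners of the factors showed 1 gene of 15 with an unadjusted p under 0.05, where 6.76% of all clusters had one. It was Creb3l3, a membrane-bound factor for triglyceride genes, at 0.41 (0.10 to 0.72), with an adjusted p of 0.725 (limma). Creb3l3 was dim, above the receptor level in 8 of 12 mice, and its control mean of 2.81 lay within the range of that level. In this list 9 were higher and 6 lower, with a median of 0.05. Duodenal genes split evenly, 4 higher and 4 lower, with Ghrl at 1.33 (0.08 to 2.59) and S100g, the calcium carrier calbindin-D9k, at -1.20 (-2.12 to -0.28), both with an adjusted p of 0.727 or 0.725 (limma). Among factors of other gut regions 6 of 9 were higher, and Nkx6-1, a pancreatic and neural homeobox gene that was below the receptor level in every mouse, was at 0.34 (0.05 to 0.63). In the gastric list 2 of 9 had an unadjusted p under 0.05, Tff1 at 0.65 (0.26 to 1.05) and Cldn18 at 0.30 (0.05 to 0.55). In the pancreatic list 3 of 9 did, Ins2 at 0.49 (0.23 to 0.74), Prss2 at 0.35 (0.13 to 0.56) and Cpb1 at 0.30 (0.07 to 0.54), and in the Brunner's gland list 1 of 2, Muc6 at 0.31 (0.12 to 0.50). Of these 6 only Tff1 was above the receptor level in every mouse, and the other 5 were above it in none. All 6 were higher in gene-trap mice. So were most clusters at or below the median signal (31.95% lower), a class that holds the other 5 but not Tff1, whose mean was 3.54. With lists this short, none of these counts, that of the relatives and partners included, is read against the 6.76% of all clusters with an unadjusted p under 0.05. Across all lists 0 genes had an adjusted p under 0.05 (limma).

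No pair of factors passed the test for shared variation from mouse to mouse. A moderate r could not be resolved with 12 mice. Pairs with Pdx1 or Onecut2 say little, because these 2 factors lay at or below the receptor level in most mice. Over the 28 pairs, Pearson's r across 12 mice ran from -0.557 (Cdx1 and Onecut2) to 0.493 (Cdx2 and Gata4), and 18 were positive. For the first of these rho was -0.315 and the permutation p of r 0.0597, and without the 2 mice farthest from the median Cdx1 signal r was -0.01. This pair was picked as the most extreme of the 28, and Onecut2 was above the receptor level in 0 of 12 mice. Within genotypes, with 6 mice each, its r was -0.843 in gene-trap mice and 0.914 in controls, a difference that was not tested. For related genes r was 0.346 for Hnf4a and Hnf4g, 0.186 for Gata4 and Gata6 and 0.0669 for Cdx1 and Cdx2. For Hnf4a and Hnf4g it was 0.861 within controls and 0.0426 within gene-trap mice, which was not tested either. Of the 28 pairs, 0 had an unadjusted permutation p under 0.05, and the smallest adjusted p was 0.690.

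Of the 8 factors, only Hnf4g followed a villus enterocyte score across mice past the threshold. The villus score, the mean log2 signal of 14 brush border and absorption genes, ran from 4.63 to 5.54. Control 782 had the highest Hnf4g (9.59) and the highest score, and the 3 mice with the lowest Hnf4g (888, 897 and 892, at 8.77 to 8.88) had scores of 4.63 to 4.79. Pearson's r was 0.878 (permutation p = 0.00037, 0.00888 after adjustment over 24 relations of 8 factors with 3 scores). Spearman's rho was 0.783 (permutation p = 0.00375, adjusted p = 0.0900), so by ranks the relation missed the threshold after adjustment. The value was 0.866 without the 2 mice farthest from the median score, 0.936 within gene-trap mice, 0.838 within controls and 0.824 to 0.913 as each mouse was left out.

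Of the 14 villus genes, 9 were above the receptor level in every mouse, and a score from these 9 alone gave r = 0.884 (permutation p = 0.00031, adjusted p = 0.00744; rho = 0.797, adjusted p = 0.0689), a choice made after seeing the data. Single villus genes were not tested. Among the 9, r with Hnf4g ran from -0.113 for Ada to 0.878 for the aminopeptidase Xpnpep2 with a median of 0.556, and 8 were positive. Over all 14, 12 were positive, from 0.884 for Mme, the peptidase neprilysin, to -0.376 for the cytochrome Cyp3a11, but these extremes were above the receptor level in only 2 and 1 of 12 mice. Of all clusters, 0.0148% had an r with the villus score at or above that of Hnf4g. Of the 498 clusters within 0.5 log2 units of the Hnf4g signal 0% did. Equally strong negative values were not counted, and all clusters include the 14 genes of the score. Hnf4g was picked as the strongest of the 24 relations, so these shares are a description. The interquartile range of the arrays had r = 0.390 with the score and 0.303 with Hnf4g. The score did not differ by genotype beyond its spread, at 5.01 ± 0.27 against 5.06 ± 0.34 (SD, n = 6 each; exact permutation p = 0.766).

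The other 7 factors had no relation to the 3 scores that passed the threshold. Hnf4a gave r = 0.138 with the villus score and 0.491 with a score of 8 crypt stem cell genes (rho = 0.615, permutation p = 0.0374, adjusted p = 0.449 by ranks). Whether the villus relation differs between Hnf4g and Hnf4a was not tested. Cdx1 and Pdx1 ran the other way from the villus score, with r of -0.544 (permutation p = 0.0669) and -0.551 (permutation p = 0.0644), both 0.535 after adjustment. With the stroma score, which differed by genotype, r lay between -0.469 (Pdx1) and 0.348 (Gata6).

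**Figure D4:**
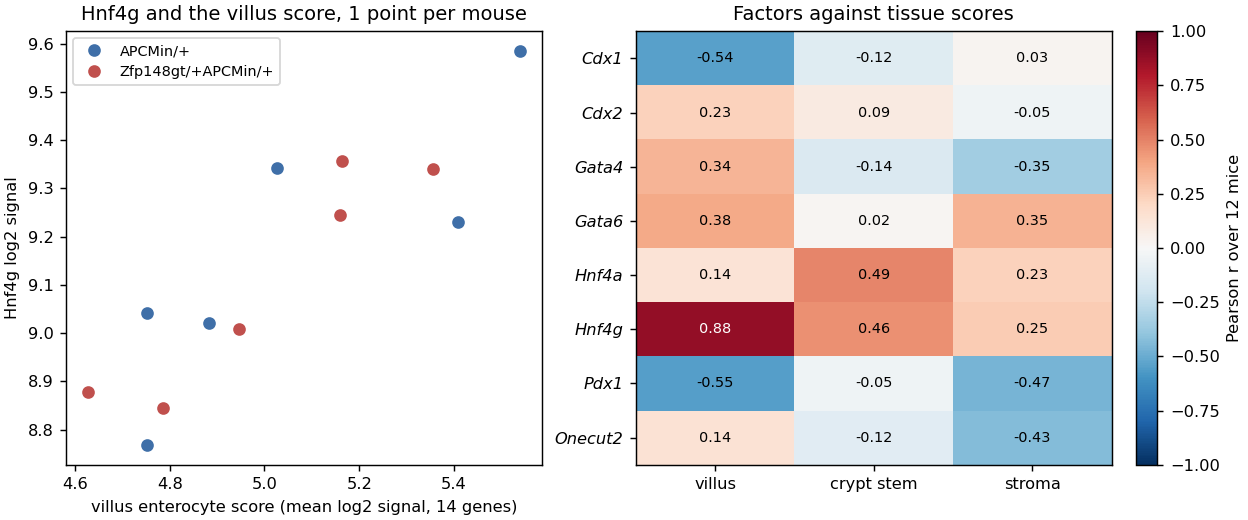
Left, Hnf4g log2 signal against the villus enterocyte score (mean log2 signal of 14 genes), 1 point per mouse, coloured by genotype. Right, Pearson's r over 12 mice of each factor with the villus, crypt stem cell and stroma scores, from -0.55 to 0.88; the Hnf4g and villus pair is the strongest.

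For each factor the 3 genes with the most similar pattern within genotypes were taken from 12845 single-symbol genes brighter than the median cluster, by Pearson's r after the genotype means were subtracted. Hnf4g was closest to Khk (ketohexokinase, the first enzyme of fructose use; r = 0.907), Adipor2 (an adiponectin receptor; 0.893) and Pik3ca (a lipid kinase; 0.878). Hnf4a was closest to Nup98 (a nuclear pore protein; 0.920), Khdc4 (0.906) and Ankrd11 (0.885). Cdx1 was closest to Akt1 (0.885), Mm2pr (0.883) and Chga (0.860), Cdx2 to Pde1b (0.888), Gimd1 (0.848) and Tigar (0.838). Gata4 was closest to Elk4 (0.871), Ppp1r14c (0.870) and Agxt (0.853), and Gata6 to Ipp (0.903), Nsdhl (0.891) and Dhrs4 (0.880). For Pdx1 these were Nlrp12 (0.898), Smco1 (0.896) and Fundc1 (0.874), and for Onecut2 Itpr2 (0.896), Olfr75-ps1 (0.891) and Os9 (0.877). Without that subtraction r over the 12 mice fell to 0.230 for Cdx1 and Akt1, 0.482 for Cdx1 and Mm2pr and 0.580, 0.592 and 0.616 for Onecut2 with Itpr2, Onecut2 with Os9 and Pdx1 with Fundc1, and the rest lay between 0.656 and 0.917. These are the highest of many values from 12 mice. No 2 factors shared a gene among them, which says nothing about their patterns when 3 of 12845 genes were taken for each.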

How the data were processed

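RNA from laser-microdissected crypt-enriched tissue was hybridised to Affymetrix Gene 2.0 ST arrays, 1 per mouse, 6 per genotype as labelled. The authors normalised the arrays with RMA in Affymetrix Expression Console and deposited 1 table of log2 values, used here as given. The log base was not stated and was taken from the range of the values, 0.85 to 13.24. Genome build and library files: not given in the sources used here. Of 33793 clusters 23521 carried 1 gene symbol, 1820 several and 8452 none, and genes were named from GEO's platform annotation (23328 of the 23521 IDs were found in the RefSeq table and 193 were not). Replicates are separate mice.

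Genotypes were compared with limma 3.58.1 in R 4.3.3 (lmFit, eBayes, Benjamini-Hochberg over all clusters, threshold 0.05), as in the study's methods, and single values by exact two-sided permutation over the 924 assignments of 6 and 6 mice. Correlations used 100000 two-sided permutations. The fit was tested on simulated data. Scores, counts and figures were made with Python 3.11.15, pandas 2.3.3 and matplotlib 3.10.9. The factors and the gene lists were chosen with earlier results of these data known, so their counts are descriptions. Named genes were the 8 factors, Zfp148, up to 4 genes per list with the smallest unadjusted p under 0.05 (otherwise the 2 smallest), and the 3 closest genes per factor. Segment genes given by level, and genes counted as detected, were chosen after their values were seen. Alternatives changed the normalisation, filter, variance model, weights, covariates, test, adjustment and each mouse in turn. Slc51b, with no single-symbol cluster, was not analysed here.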

Additional observations from a re-analysis of the deposited data

How the results depend on the processing

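No factor was called under any alternative, and the smallest adjusted p was 0.648 (Pdx1, limma). Onecut2 reached an unadjusted p of 0.0351 (limma) without gene-trap mouse 783, the only 1 of its settings with a p under 0.05. It is filtered out among brighter clusters. The Cdx2 log2 difference became -0.037 with arrays centred, -0.0046 as a ratio of linear means, -0.013 with array weights and -0.010 with the stroma score as covariate. With that covariate Gata4 was -0.022, Hnf4a 0.046 and Hnf4g 0.10, with the interquartile range Hnf4g was 0.10 and Pdx1 -0.048, and after a further quantile normalisation Hnf4a was 0.016. The cause was not tested.

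Leaving out each mouse gave -0.16 to -0.05 for Cdx1, -0.035 to 0.079 for Cdx2, 0.05 to 0.22 for Gata4, -0.21 to -0.09 for Gata6, -0.096 to 0.011 for Hnf4a, -0.13 to 0.031 for Hnf4g, 0.09 to 0.17 for Pdx1 and 0.13 to 0.27 for Onecut2. Over the array 0 to 1 clusters were then called, the 1 without APCMin/+ mouse 885. The relation of Hnf4g to the villus score was rho = 0.783 by ranks (permutation p adjusted 0.0900), a value computed for all 24 relations. It was r = 0.888 with arrays centred and r = 0.884 with the detected villus genes alone, both settings chosen after seeing the data. No paired analysis was possible because the labels do not say which mice were littermates. Signal over background limits Pdx1 and Onecut2, which lay at the receptor level in most mice.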
